A study of Homo sapiens with 6 samples.

Results

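NRF2 target genes are the genes of the antioxidant and detoxification programme that the transcription factor NRF2 switches on. The 37 genes described here were given by name, out of 37902 genes in the table, and were taken by their GENCODE symbols. They were listed with the normalised counts of these same libraries known, both between POLDIP2 KO and WT and between replicate 1 and replicates 2 and 3, so neither contrast is a test of the list and its values are given as a description. All 37 were found in the table, and 35 had a mean of at least 10 normalised counts over the 6 libraries. A normalised count is the number of reads of a gene after the authors had scaled each library by its size factor.

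The data are RNA-seq libraries of ARPE-19, a human cell line grown from retinal pigment epithelium (RPE), in regular maintenance culture at day 3. WT is unmodified ARPE-19, and POLDIP2 KO is ARPE-19 that had received SpCas9 and an sgRNA against the POLDIP2 coding sequence from a lentivirus and was selected with puromycin, with 3 biological replicates of each. The methods describe POLDIP2 KO as transduced cells that were expanded after selection, without saying that a clone was picked, so lentivirus, Cas9 and selection differ between the lines together with POLDIP2. The WT libraries, in the order of replicates 1, 2 and 3 that is kept throughout, held 39657489, 36517259 and 35515478 recovered reads, and those of POLDIP2 KO held 31532797, 45795509 and 38293289. POLDIP2 itself had 3919, 4827 and 4798 normalised counts in WT and 1063, 1248 and 1143 in POLDIP2 KO, so each library followed its label.

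The RPE label was checked against 12 marker genes, of which 9 had a mean of at least 10 normalised counts. The keratin genes KRT8 and KRT18 and the pigment cell regulator MITF were abundant in every library, while RPE65, the isomerase that defines the mature RPE, and TTR were at 0 in all 6. Summed over the 12 genes, the normalised counts were 91610, 79085 and 75520 in WT and 99627, 71922 and 83279 in POLDIP2 KO, and KRT8 was the most abundant of them. BEST1, an RPE chloride channel, had 61.4, 562 and 377 in WT and 239, 419 and 669 in POLDIP2 KO, lowest in replicate 1 of both lines, and the retinol dehydrogenase RDH10 had 9656, 3518 and 4160 in WT and 10620, 4941 and 6746 in POLDIP2 KO, highest in replicate 1 of both. Across all 14684 genes with a mean of at least 10, the replicate 1 libraries stood apart from the others in the same way in both lines. Deviations from the line mean correlated at 0.315 between WT replicate 1 and POLDIP2 KO replicate 1, against 0.137 and 0.129 for replicates 2 and 3. In both lines, 172 genes were at least 2-fold lower in replicate 1 than in the mean of replicates 2 and 3 on the log2 scale and below each of them, and 307 genes were at least 2-fold higher and above each of them.

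NRF2, encoded by NFE2L2, is held at a low level in unstressed cells because KEAP1 hands it to the CUL3 ubiquitin ligase for degradation. Electrophiles and oxidants modify cysteines of KEAP1, NRF2 then accumulates, pairs with a small MAF protein and binds antioxidant response elements near its target genes. The RPE is exposed to light and oxygen and takes up oxidised lipid from photoreceptors, and NRF2 targets are part of its defence. Because NRF2 is controlled mainly as a protein, its mRNA need not follow its activity.

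The antioxidant response element has the core TGACNNNGC, and a related form shared with other factors can be written TGANTCAGC, which also meets the core where its N is C. Both were searched on both strands of the promoters in the RefSeq table for GRCh38.p14, from 250 bases before to 50 bases after each start. The table gave 36 promoters for 27 of the 37 genes. SLC7A11, HMOX1, PRDX1, FTH1, GSR, TRIM16L, ABCC1, AKR1B10, CBR3 and ABCC3 had no entry. The core was found in 9 of the 36 promoters (25.0%) and in 13.3% of all 35116 promoters, and the related form in 3 of 36 (8.33%) and 1.36% of all. A match is only a run of letters and was not shown to be bound. Core matches in CBR1 and PGD, and further ones in KEAP1, ME1 and TXNRD1, are left out below. The following sites belong to genes whose levels are described further on and are shown so that their letters can be compared, each read on the strand that holds the motif, with the motif in capitals and 10 bases on either side.
GCLM: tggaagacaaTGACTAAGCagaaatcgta
KEAP1: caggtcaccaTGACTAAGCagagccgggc
TXNRD1: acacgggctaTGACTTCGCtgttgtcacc
EPHX1: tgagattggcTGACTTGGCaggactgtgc
ME1: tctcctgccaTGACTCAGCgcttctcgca
PIR: agcctcaccgTGACTCAGCgcttcgcggc
OSGIN1: ttcataagcgTGAGTCAGCaggggcccgt

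The GCLM window is chr1:93909446-93909474 on the plus strand, 34 bases before the RefSeq start of this minus-strand gene, counted to the motif base farthest upstream. The KEAP1 window, chr19:10502784-10502812 on the plus strand, lies 31 bases before an internal start of KEAP1 and holds the same motif as GCLM. The TXNRD1 window is chr12:104215670-104215698 on the plus strand, 99 bases before its upstream start. The EPHX1 window, chr1:225825266-225825294 on the plus strand, lies 78 bases before an internal start. ME1 (chr6:83431170-83431198, minus strand, 137 bases before the start) and PIR (chrX:15493289-15493317, plus strand, inside the transcribed part) hold the same motif. The OSGIN1 window is chr16:83953131-83953159 on the minus strand, 99 bases before a RefSeq start that lies inside the gene as GENCODE draws it. Of the 9 genes with a match to either form, 7 were lowest in replicate 1 in both lines, with median log2 differences of -1.40 in WT and -1.23 in POLDIP2 KO. Of the 16 other genes with a promoter entry and a mean of at least 10, 13 were, with medians of -0.92 and -0.68.

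Most NRF2 target mRNAs were lower in replicate 1 than in replicates 2 and 3, and this held in WT and in POLDIP2 KO. The summed normalised count of the 37 genes was 269187, 626025 and 783769 in WT, and 360758, 657068 and 795554 in POLDIP2 KO. These sums were 0.719%, 1.71% and 2.11% of the WT libraries and 0.93%, 1.76% and 2.09% of the POLDIP2 KO libraries, so the replicate 1 library was the low library of each line. In bulk libraries such as these, fewer cells that express a gene and less of its RNA per cell cannot be told apart. The ferritin gene FTH1 was the most abundant member in every library. Replicate 1 was the lowest library for 31 of the 35 genes with a mean of at least 10 in WT and for 30 in POLDIP2 KO, against 35.6% and 37.9% of all genes tested. In all, 28 were below both other replicates in replicate 1 of both lines at once, a pattern seen in 20.5% of all genes tested. At least 2-fold lower in both lines were 15 of the 35, against 1.17% of all genes tested. These 15 genes made up 8.72% of the 172 genes with that pattern and 40.5% of the 37 members. Because the list was drawn up with this contrast in view, the shares describe the list and are not evidence for it.

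The difference between replicate 1 and the mean of replicates 2 and 3, on the log2(normalised count + 1) scale, had a median over the 35 genes of -1.16 in WT and -0.95 in POLDIP2 KO. Its range was from -4.71 to 0.98 in WT and from -3.05 to 0.24 in POLDIP2 KO. Over all genes tested, the medians were 0.01 and 0.00. Across the 35 genes, the differences of the lines correlated with a Pearson's r of 0.83 and a Spearman's rho of 0.84, and across all 14684 genes with 0.31 and 0.43. Across 20 other NRF2 targets, described further on, the values were 0.90 and 0.92, so the agreement was not particular to the members. The members were listed with these differences known. These values are across genes, which are not independent replicates, and the lines share no library in them. Replicates 2 and 3 also differed, as 27 of the 35 genes were higher in replicate 3 than in replicate 2 in both lines, against 26.9% of all genes tested.

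**Figure D1:**
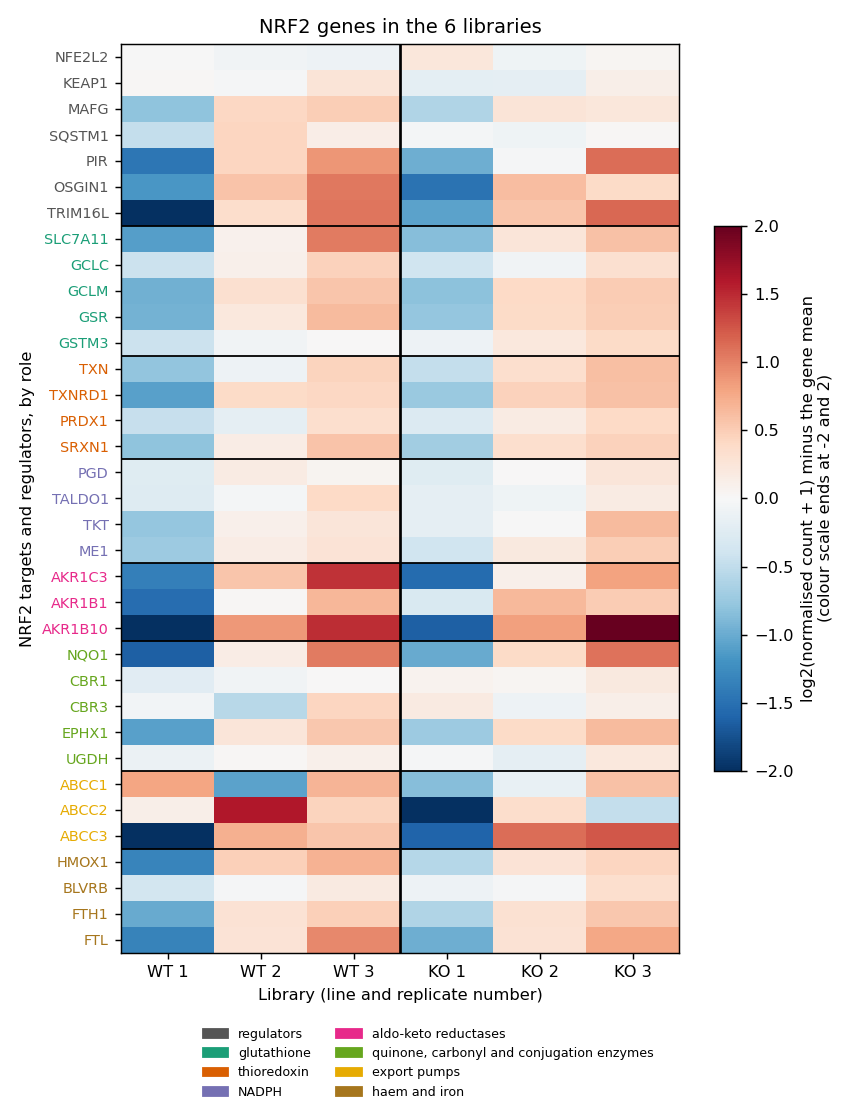
Heatmap of the 35 NRF2 targets and regulators with a mean of at least 10, showing log2(normalised count + 1) minus the mean of the gene over the 6 libraries (colour, ending at -2 and 2), with columns for WT and POLDIP2 KO (KO) replicates 1 to 3 and rows grouped by role. The columns of replicate 1 are blue for most genes in both lines, and NFE2L2 and KEAP1 stay pale in every column.

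NFE2L2 and KEAP1 themselves were not lowest in replicate 1 of both lines, although KEAP1 was lowest there in POLDIP2 KO by a small margin. Over the 7 genes listed as regulators, which include target genes, the median replicate 1 difference was -1.26 in WT and -0.84 in POLDIP2 KO, and 4 were lowest in replicate 1 of both lines. NFE2L2 (GRCh38 chromosome 2, 177218667 to 177392756, minus strand, GENCODE) had 3923, 3766 and 3694 normalised counts in WT and 4600, 3714 and 4079 in POLDIP2 KO. Replicate 1 was thus the highest library of each line for NFE2L2. KEAP1 (chromosome 19, 10486125 to 10503558, minus strand) had 3077, 2975 and 3627 in WT and 2624, 2665 and 3263 in POLDIP2 KO, with replicate 3 as the high library of each line. SQSTM1, whose protein p62 binds and sequesters KEAP1, had 17575, 32922 and 26824 in WT and 23617, 23039 and 24659 in POLDIP2 KO, so its replicate 1 was low in WT and within the other replicates in POLDIP2 KO. MAFG, a small MAF partner of NRF2, was lowest in replicate 1 of both lines, with 1250, 2918 and 3067 in WT and 1443, 2603 and 2562 in POLDIP2 KO.

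PIR, OSGIN1 and TRIM16L are induced by NRF2 and are listed here with the regulators. PIR encodes pirin, an iron-binding nuclear protein, and had 122, 453 and 618 normalised counts in WT and 170, 330 and 728 in POLDIP2 KO. OSGIN1, an oxidative stress-induced growth inhibitor, had 165, 550 and 770 in WT and 133, 567 and 485 in POLDIP2 KO. Replicate 1 of OSGIN1 stood at 0.255 of the geometric mean of replicates 2 and 3 in both lines. TRIM16L had 880, 4691 and 7678 in WT and 1743, 5378 and 8078 in POLDIP2 KO, although 59.1% of its 31-base words also occur in transcripts of other genes, so its reads are less certain.

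All 5 genes of glutathione supply and use were lowest in replicate 1 of both lines. SLC7A11, the cystine importer that feeds glutathione synthesis, had 1790, 4065 and 7886 normalised counts in WT and 2128, 4570 and 5777 in POLDIP2 KO. GCLM and GCLC encode the modifier and catalytic subunits of glutamate-cysteine ligase, which makes the rate-limiting step of glutathione synthesis. GCLM had 1669, 4066 and 4789 in WT and 1853, 4321 and 4618 in POLDIP2 KO. GCLC had 1290, 1862 and 2390 in WT and 1320, 1644 and 2175 in POLDIP2 KO, a smaller gap between replicate 1 and the others than that of its partner subunit. Glutathione reductase, GSR, stood in replicate 1 at 0.388 of the other replicates in WT and at 0.434 in POLDIP2 KO. The transferase GSTM3 had 1480, 1896 and 2016 normalised counts in WT and 1865, 2297 and 2598 in POLDIP2 KO, with replicate 1 at 0.757 and 0.764 of the others. It was higher in POLDIP2 KO in all 3 same-numbered pairs, while the lines overlapped, and the limma adjusted p value was 0.922, or 0.255 with the block.

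The 4 thioredoxin genes were also lowest in replicate 1 of both lines. TXNRD1 (chromosome 12, 104215779 to 104350307, plus strand), the reductase that recharges thioredoxin with NADPH, had 43497, 120531 and 123288 normalised counts in WT and 55084, 128057 and 138593 in POLDIP2 KO. Its replicate 1 libraries lay below all 4 others, which lay close together. Thioredoxin itself, TXN, had 3927, 6276 and 9164 in WT and 4842, 8483 and 10258 in POLDIP2 KO. SRXN1, the sulfiredoxin that repairs overoxidised peroxiredoxins, had 2250, 4350 and 5815 in WT and 2421, 4977 and 5428 in POLDIP2 KO, but 90.6% of its 31-base words are shared with other annotated genes. PRDX1, a peroxiredoxin, showed the smallest gap of the 4, at 0.691 of the other replicates in WT and 0.684 in POLDIP2 KO.

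The 4 enzymes that regenerate NADPH or feed that route were lowest in replicate 1 by smaller amounts, and none was 2-fold lower in both lines. ME1, cytosolic malic enzyme, had 1489, 2746 and 2987 normalised counts in WT and 1867, 2835 and 3463 in POLDIP2 KO. TKT, a transketolase of the pentose phosphate pathway, had 26806, 49268 and 54187 in WT and 40241, 45397 and 70754 in POLDIP2 KO. In POLDIP2 KO, replicate 2 of TKT lay nearer to replicate 1 than to replicate 3. PGD, which makes NADPH in the same pathway, stood in replicate 1 at 0.782 of the other replicates in WT and 0.78 in POLDIP2 KO, and TALDO1, a transaldolase, at 0.74 and 0.859.

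The aldo-keto reductases, which reduce aldehydes and ketones with NADPH, had the lowest median replicate 1 difference of the roles in WT, -2.36 on the log2 scale over 3 genes, and -1.98 in POLDIP2 KO. AKR1B10 was covered by 2, 60 and 89 reads in WT and 8, 72 and 136 in POLDIP2 KO, and by the mean difference of both lines it ranked 26 from the bottom of 14684 genes. Of its 31-base words, 31.5% are shared with other annotated genes, so its reads are uncertain. AKR1C3 had 180, 683 and 1264 normalised counts in WT and 160, 496 and 810 in POLDIP2 KO. AKR1B1, aldose reductase, had 13227, 38646 and 60511 in WT and 30946, 59682 and 54530 in POLDIP2 KO, so its POLDIP2 KO replicate 1 was nearer to the other libraries than its WT replicate 1. AKR1C1 was covered by 0, 2 and 0 reads in WT and 0, 9 and 10 in POLDIP2 KO. AKR1C2 had 0 reads in every WT library and 0, 3 and 7 in POLDIP2 KO. AKR1C1 and AKR1C2 did not reach a mean of 10, and 44.6% of the 31-base words of AKR1C2 occur in AKR1C1, so reads could be split between them.

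NQO1, the quinone reductase whose mRNA is the most used readout of NRF2 activity, lies on chromosome 16 from 69706996 to 69726668 on the minus strand. It had 6899, 23738 and 44125 normalised counts in WT and 10643, 27827 and 45411 in POLDIP2 KO. Replicate 1 stood at 0.213 of the geometric mean of the other replicates in WT and at 0.299 in POLDIP2 KO. EPHX1, an epoxide hydrolase, had 1215, 3048 and 3721 in WT and 1555, 3361 and 3976 in POLDIP2 KO. The other 3 enzymes of this group showed little of the pattern. CBR1, a carbonyl reductase, stood in replicate 1 at 0.874 and 0.973 of the other replicates, its paralogue CBR3 at 1.01 and 1.13, and UGDH, which makes the sugar donor for glucuronidation, at 0.881 and 0.979.

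Between the multidrug resistance pumps, which export glutathione and glucuronide conjugates, the pattern was mixed. ABCC3 had 333, 2221 and 1988 normalised counts in WT and 447, 2962 and 3212 in POLDIP2 KO. Replicate 1 was far below the others in both lines for ABCC3. ABCC1 had 1084, 298 and 1004 in WT and 348, 565 and 940 in POLDIP2 KO, so replicate 1 was the lowest library in POLDIP2 KO, while in WT it was close to replicate 3 and replicate 2 was low. ABCC2 was scarce, with 21, 57 and 24 reads in WT and 3, 29 and 13 in POLDIP2 KO.

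All 4 genes of haem breakdown and iron storage were lowest in replicate 1 of both lines. HMOX1, which opens the haem ring and releases iron, had 700, 2456 and 2856 normalised counts in WT and 1179, 2128 and 2376 in POLDIP2 KO. FTL, the ferritin light chain, had 33454, 102721 and 164958 in WT and 43025, 103570 and 144576 in POLDIP2 KO. FTH1, the ferritin heavy chain, had 68139, 167200 and 192169 in WT and 90440, 170447 and 199433 in POLDIP2 KO. Both ferritin chains have processed copies, and 33.5% of the 31-base words of FTL and 27.4% of those of FTH1 occur in other annotated genes. BLVRB, a biliverdin reductase, had 874, 1120 and 1278 in WT and 1059, 1114 and 1434 in POLDIP2 KO.

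**Figure D2:**
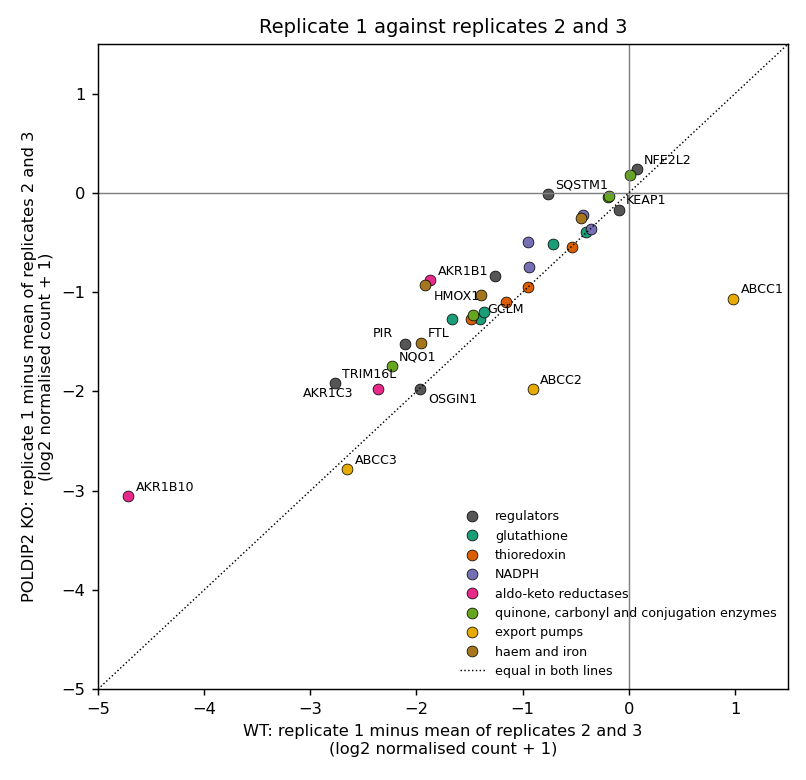
Replicate 1 minus the mean of replicates 2 and 3 on the log2(normalised count + 1) scale in WT (horizontal axis) and POLDIP2 KO (vertical axis), 1 point per gene for 35 genes, coloured by role, with a dotted line where the lines would be equal. Most points lie at the lower left, near or above the dotted line, NFE2L2 and KEAP1 lie near 0, and ABCC1 is positive in WT, where its replicate 2 was low, and negative in POLDIP2 KO.

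The lines were compared next. Because the list was drawn up with this contrast known as well, these counts describe the 35 genes and do not test the list. In the limma fit of all 14684 genes, a call needed a Benjamini-Hochberg adjusted p value below 0.05 together with a difference of more than 1.5-fold. None of the 35 genes (0) met this, beside 0.17% of all genes tested, 0.0817% higher and 0.0885% lower in POLDIP2 KO. At an unadjusted p value under 0.05, limma had 0 of the 35 against 6.48% of all genes. The edgeR quasi-likelihood test and DESeq2 on recovered reads, both chosen after seeing the data, called 0 of the 35, beside 0.116% and 1.69% of all genes. The limma adjusted p values of the 35 genes ran from 0.902 to 0.9998. In POLDIP2 KO, 25 of the 35 genes were higher and 10 lower than in WT, with a median log2 fold change of 0.09 beside 0.00 for all genes tested. Libraries of the lines overlapped for 34 of the 35 genes, and among all genes tested 10.9% did not overlap (5.46% higher in POLDIP2 KO).

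That median moved with every single library left out. It was 0.41, with 32 of 35 genes higher, without POLDIP2 KO replicate 1, and -0.30, with 6 of 35 higher, without WT replicate 1. It was 0.05 (20 of 35 higher) and 0.19 (27 of 35) without POLDIP2 KO or WT replicate 2, and -0.10 (10 of 35 higher) and 0.38 (32 of 35) without POLDIP2 KO or WT replicate 3. Most of the 35 genes were lowest in replicate 1 and higher in replicate 3 than in replicate 2 of both lines. Leaving out a single library unbalances the replicates, so the median shifts with these replicate differences, whatever the difference between the lines. With both replicate 1 libraries left out, a setting chosen after seeing the data, the median was 0.05, 22 of the 35 genes were higher in POLDIP2 KO, and 0 were called by limma. The spread within a line, pooled over the lines on the log2 scale, had a median of 0.72 over the 35 genes against 0.24 over all genes tested.

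The same-numbered libraries were also compared with each other. The labels name no batch that they share. WT replicate 3 correlated with POLDIP2 KO replicate 2 at 0.147, above the same-numbered 0.137 and 0.129 of replicates 2 and 3. Pairing by number is thus an assumption for those replicates. Replicate 1 of POLDIP2 KO was above replicate 1 of WT for 30 of the 35 genes, with a median log2 difference of 0.28, while the pairs of replicates 2 and 3 gave 20 and 18 genes with medians of 0.04 each. In all 3 pairs, 11 genes were higher in POLDIP2 KO (17.0% of all genes tested) and 3 were lower (15.7%). When replicate number entered the fit as a block, the median width of the 95% confidence interval of the log2 fold change over the 35 genes was 0.54 in place of 2.18. Over all genes tested it was 0.70 in place of 0.90. The block fit called 0 of the 35 genes, beside 0.204% of all genes tested, and the smallest adjusted p value was 0.161, for ABCC3. At an unadjusted p value under 0.05, it had 6 of the 35 against 11.1% of all genes.

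Of the 35 intervals without the block, 28 reached past a 1.5-fold change in either direction, while with the block 22 of the 35 stayed within it. The 7 that stayed within 1.5-fold in both fits belonged to NFE2L2, KEAP1, PGD, TALDO1, CBR1, UGDH and BLVRB. Normalised counts of NFE2L2 averaged 3794 ± 117 in WT libraries and 4131 ± 445 in those of POLDIP2 KO (mean ± SD, n = 3), and the log2 difference was 0.12 (95% confidence interval -0.14 to 0.38). KEAP1 averaged 3226 ± 351 and 2851 ± 358, a log2 difference of -0.18 (-0.49 to 0.13).

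CBR1 was the gene without overlap, with 2434, 2713 and 2862 normalised counts in WT and 3015, 2934 and 3276 in POLDIP2 KO. Its log2 fold change of 0.21 (95% confidence interval -0.05 to 0.46) was below the 1.5-fold threshold. NQO1 averaged 24920 ± 18641 and 27960 ± 17384 in the lines (SD over 3 libraries, WT first), and its log2 interval of -1.50 to 2.09 narrowed to -0.01 to 0.61 with the block. AKR1B1 averaged 37461 ± 23665 and 48386 ± 15322, a log2 difference of 0.57 (-0.73 to 1.87, and -0.07 to 1.21 with the block). TXN averaged 6456 ± 2623 and 7861 ± 2761, a log2 difference of 0.30 (-0.58 to 1.18, and 0.08 to 0.52 with the block). The largest differences in either direction belonged to scarce genes, AKR1B10 at 0.80 (-2.68 to 4.29) and ABCC2 at -1.43 (-3.16 to 0.30). With a single library left out, the differences of AKR1B1, AKR1B10, NQO1 and TXN changed in size, and each was below 0 without WT replicate 1. Without WT replicate 1 they were -0.06 for AKR1B1, -0.77 for AKR1B10, -0.44 for NQO1 and -0.02 for TXN. Without WT replicate 3 they were 1.04, 1.74, 0.89 and 0.59, and without POLDIP2 KO replicate 1 they were 0.86, 1.82, 0.88 and 0.62. Without POLDIP2 KO replicate 3, AKR1B10 was at -0.01, NQO1 at -0.17 and TXN at 0.07, while AKR1B1 stayed above 0. On replicates 2 and 3 alone, AKR1B1 was at 0.24, AKR1B10 at 0.25, NQO1 at 0.14 and TXN at 0.30. Leaving out a single library also leaves its same-numbered partner unmatched. Within same-numbered pairs, in replicate order, TXN differed by 0.302, 0.435 and 0.163 and NQO1 by 0.625, 0.229 and 0.041. The pairs were of mixed sign for AKR1B1 (1.226, 0.627 and -0.150) and AKR1B10 (1.908, -0.038 and 0.534). ABCC2 stayed below 0 with any library left out, from -1.97 without POLDIP2 KO replicate 2 to -0.77 without POLDIP2 KO replicate 1. Its same-numbered pairs differed by -2.151, -1.242 and -0.906. With the block its interval was -2.62 to -0.24, and the limma adjusted p value was 0.353.

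**Figure D3:**
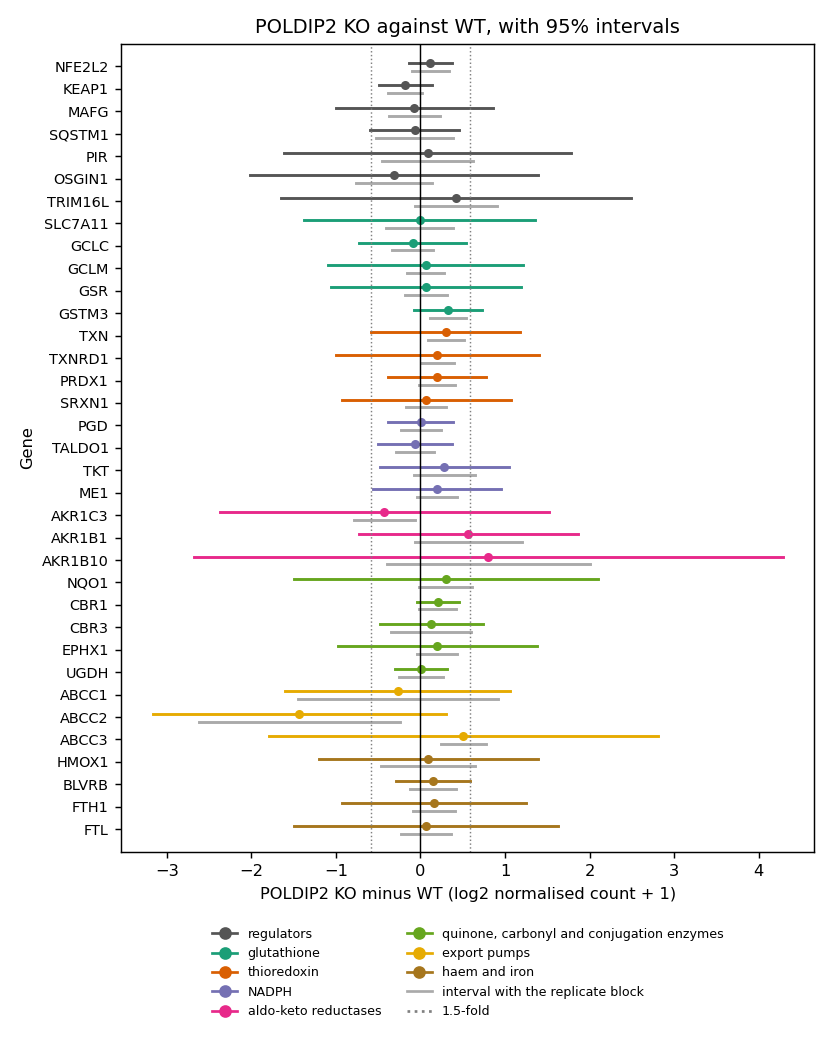
POLDIP2 KO minus WT in log2(normalised count + 1) for 35 genes, with points for the estimates, coloured lines for the 95% confidence intervals of limma, grey lines for the intervals with the replicate block and dotted lines at 1.5-fold. The coloured interval of every gene includes 0, and the grey intervals are narrower for most genes.

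Further genes of the pathway were taken from a list of 26 other NRF2 targets and 10 genes that control KEAP1 or NRF2. Of the 26, LUCAT1 was not analysed here and 20 had a mean of at least 10. Replicate 1 was lowest in both lines for 10 of these 20 (20.5% of all genes tested), and at least 2-fold lower in both for 2 (1.17%), TRIM16 among them. TRIM16, the paralogue of TRIM16L, had 1412, 3667 and 5004 normalised counts in WT and 2201, 4311 and 5936 in POLDIP2 KO. Of the 31-base words of TRIM16L, 59.1% occur in other genes. The part shared with TRIM16 was not counted, so the reads of these paralogues may not be independent. The glutathione transferase GSTP1 showed no such gap, with 15404, 15340 and 15485 in WT and 17987, 13727 and 14240 in POLDIP2 KO. The median log2 difference of replicate 1 was -0.39 in WT and -0.27 in POLDIP2 KO over the 20 targets.

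Over the 10 control genes, the corresponding medians were 0.06 and 0.18. CUL3, the scaffold of the ligase that KEAP1 serves, had 3608, 3776 and 3961 normalised counts in WT and 3664, 4016 and 4139 in POLDIP2 KO. BACH1, a repressor that competes with NRF2 for its elements, had 1645, 2844 and 2019 in WT and 1669, 2530 and 2516 in POLDIP2 KO, lowest in replicate 1 of both lines. MAFK, a small MAF like MAFG, had 2325, 1769 and 1306 in WT and 2911, 1333 and 1162 in POLDIP2 KO, highest in replicate 1 of both. Between POLDIP2 KO and WT, limma called 0 of the 30 genes of these lists with a mean of at least 10, with 0 at an unadjusted p value under 0.05, against 0.17% and 6.48% of all genes tested, and edgeR and DESeq2 also called 0. The libraries did not overlap for 2 of the 30 genes (10.9% of all genes tested), GSTM4 and AKR1A1. GSTM4, a glutathione transferase, had 511, 691 and 700 normalised counts in WT and 706, 703 and 953 in POLDIP2 KO, a log2 difference of 0.31 (-0.14 to 0.76). AKR1A1, an aldehyde reductase, had 1645, 1524 and 1518 in WT and 1402, 1379 and 1433 in POLDIP2 KO, a log2 difference of -0.15 (-0.38 to 0.08).

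Several other gene lists differed in the replicate 1 libraries as well. The 6 fibroblast marker genes summed to 2178, 357 and 695 normalised counts in WT and 7732, 806 and 1970 in POLDIP2 KO, highest in replicate 1 of each line. Nearly all of the WT sum was COL1A1, the most abundant gene, with 2147, 320 and 677 in WT and 6956, 760 and 1953 in POLDIP2 KO, while COL1A2 reached 614 in POLDIP2 KO replicate 1 and stayed under 10 elsewhere. COL1A1 was higher in POLDIP2 KO in the block fit (log2 difference 1.49, limma adjusted p = 0.0436) and was not called without the block (adjusted p = 0.981). Of these 6 genes 4 had a mean of at least 10 and 2 of the 4 were highest in replicate 1 of both lines. COL3A1 and DCN were lowest there in WT by normalised count, but on only 3, 3 and 7 and 0, 3 and 1 reads. In POLDIP2 KO both were highest in replicate 1, with 101, 22 and 5 and 11, 6 and 1 reads. LUM was at 0 in 4 libraries, with 1 and 8 reads in replicate 1 of WT and POLDIP2 KO. Among 6 endothelial and blood cell markers, summing to between 17.8 and 58.6, HBB was at 0 in every library and VWF was the most abundant. The 13 mitochondrially encoded mRNAs summed to 1604001, 2040050 and 1935981 in WT and 1823686, 2366891 and 2084482 in POLDIP2 KO, lowest in replicate 1 of each line, with MT-CO1 as the most abundant. The 8 proliferation genes summed to 69209, 47781 and 72007 in WT and 51216, 63445 and 58929 in POLDIP2 KO, so replicate 1 did not take the same place in both lines. Whether any of these has a part in the replicate 1 difference of the NRF2 targets was not tested.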

How the data were processed

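Normalised counts of polyadenylated RNA from ARPE-19 were taken from the deposited table. For this signal, the authors quantified reads with Salmon 1.8, summarised transcripts to GRCh38 genes through tximport and applied a DESeq2 1.34.0 size factor to each library, with versions from the submitters' processing notes. The annotation release is not given in the sources used here. Of 37902 genes, 34152 had a symbol in GENCODE release 44. All columns were used, so 0 were left out. Reads were recovered by dividing each column by its smallest value above 0, and all came out whole within 0.001. In WT replicate 2 and POLDIP2 KO replicate 3 that step is close to 1, where this says little.

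Values were filtered to a mean of 10 or more and transformed to log2(normalised count + 1). The lines were then compared by limma 3.58.1 (R 4.3.3; trended eBayes, Benjamini-Hochberg adjustment). The added 1 understates fold changes of scarce genes, and 3 libraries against 3 cannot give an exact permutation p value under 0.1. Recovered reads were tested with edgeR 4.0.16 and DESeq2 1.42.0. Replicate 1 was compared with the mean of replicates 2 and 3 without a test. The fits without the block were run on simulated counts, and the motif search on a sequence with planted sites. The simulated libraries held no replicate effect and the block fit was not tried on them. They therefore do not show how the fits behave on genes that differ between replicates. Words of 31 bases were compared among GENCODE transcripts, which may differ from the annotation the authors used.

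Same-numbered libraries deviated together, with correlations of 0.315, 0.137 and 0.129 across genes, above the limit of 0.1, so the numbers were taken to pair the libraries. Other combinations ran from -0.259 to 0.147, the highest for WT replicate 3 with POLDIP2 KO replicate 2, so replicates 2 and 3 were not singled out by their numbers. Labels call the libraries biological replicates and give no shared day or batch. The members and lists were chosen with earlier results of these data known. Values in every library are given for NFE2L2, KEAP1, POLDIP2, genes without overlap, and in each role the 2 genes with the largest difference between lines and the 2 with the largest replicate 1 difference. Other genes given by library were chosen after their values were seen. For the list of other NRF2 targets, the counts include 1 gene that is not reported here.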

Additional observations from a re-analysis of the deposited data

Results flagged for a closer look

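ABCC1, an export pump for glutathione conjugates, drew attention because its replicate 1 differences had opposite signs in the lines. Replicate 1 minus the mean of replicates 2 and 3 was 0.98 in WT and -1.06 in POLDIP2 KO on the log2 scale. The WT value rests on the low replicate 2, since replicate 1 minus replicate 3 alone was 0.11 in WT, and -1.43 in POLDIP2 KO. The difference between the lines was not tested, and groups of 3 libraries are too small for an outlier check.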

How the results depend on the processing

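The count of genes that limma called between POLDIP2 KO and WT was 25 of 14684, and it was 16 with a mean of at least 50, 30 in the blocked fit that pairs replicates, 248 with DESeq2 on recovered reads and 4 with replicates 2 and 3 of each line alone. Leaving out single libraries gave 0 to 5, 4 without POLDIP2 KO replicate 1, 5 without WT replicate 1 and 0 without any of the other 4. Called NRF2 genes numbered 0 in all of these settings. The block changed no call of an NRF2 gene. The median log2 fold change of the NRF2 genes ranged from -0.30 to 0.41 with each library left out, changing direction without WT replicate 1 or POLDIP2 KO replicate 3, and from 0.05 to 0.12 under the other settings. Leaving out a single library unbalances the replicates, and this median then shifts with the differences between them. The median replicate 1 difference stayed below 0, from -1.29 to -0.95 in WT and from -1.08 to -0.85 in POLDIP2 KO, under other pseudocounts, filters and scalings and with replicate 2 or 3 left out. Genes lower in replicate 1 numbered 31 to 33 in WT and 30 to 35 in POLDIP2 KO. Scarce genes such as AKR1B10, AKR1C1, AKR1C2 and ABCC2 are limited by depth.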

Other observations

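The ATF4 programme of amino acid stress, which shares SLC7A11 with NRF2, was read from a list of 9 genes, of which SESN2 was not analysed here. All 8 others were lower in POLDIP2 KO by the fitted mean, as were 7350 of all 14684 genes tested, with a median log2 fold change of -0.45, and limma called 0 of them, with 2 at an unadjusted p value under 0.05, against 0.17% and 6.48% of all genes tested, while edgeR and DESeq2 also called 0. The libraries of the lines did not overlap for 2 of the 8, against 10.9% of all genes tested. ASNS, asparagine synthetase, had 1562, 2773 and 1734 normalised counts in WT and 1127, 1338 and 1144 in POLDIP2 KO, and the log2 difference was -0.71 (95% interval -1.23 to -0.18, limma adjusted p = 0.514). PHGDH, the entry enzyme of serine synthesis, had 5011, 4809 and 4820 in WT and 4083, 3125 and 3727 in POLDIP2 KO, and the log2 difference was -0.43 (-0.71 to -0.14, limma adjusted p = 0.402). By same-numbered pairs, the median log2 difference of the 8 genes was -0.02 in pair 1 with 4 genes higher in POLDIP2 KO, -1.18 in pair 2 with 0 higher and -0.42 in pair 3 with 1 higher. WT replicate 2 held the highest values of ATF3, with 593, 2457 and 1086 in WT and 605, 452 and 605 in POLDIP2 KO, and of CHAC1, with 92, 373 and 169 against 159, 149 and 106. The median of the 8 genes relative to their means was 1.05 in WT replicate 2 and between -0.357 and 0.145 in the other 5 libraries.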
